A study of Mus musculus with 9 samples.

Results

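Ephrins and Eph receptors are cell-surface proteins that mark tissue boundaries, and 10 genes of this family with roles at the coronal suture were followed here out of 43644 measured genes. They were taken by symbol: the A-type ephrins Efna1, Efna2, Efna4 and Efna5, the B-type ephrins Efnb1 and Efnb2, the EphA receptors Epha3, Epha4 and Epha7, and the EphB receptor Ephb3. The rule names known roles at the coronal boundary or in craniofacial disease and uses no measured value, though it was written with earlier results of these data known. All 10 were found and all 10 passed the filter on low values, as did 29107 of the 43644 genes.

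RNA came from the coronal suture, where the frontal bone of the skull meets the parietal bone, in C57BL/6 mice aged 7 months per the sample labels. The series text also speaks of a time after induction and of paired samples, which the labels do not explain, and neither was used here. WT was the wild type without treatment (3 libraries). MUT carried the Twist1+/- genotype, with a single working copy of the transcription factor Twist1, and had no treatment (3 libraries). REG carried the same Twist1+/- genotype and had suture regeneration surgery at the age of 1 month, so that this group differed from WT in both genotype and surgery (3 libraries). Per the labels' protocols, all 9 RNA samples passed a check of integrity; they do not state whether animals were pooled or shared between libraries, how the surgery was done, and whether unoperated mice had a sham operation.

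Ephrins are ligands held at the cell surface, A-type ephrins by a lipid anchor and B-type ephrins by a transmembrane segment. Eph receptors are receptor tyrosine kinases that bind them on a neighbouring cell, and both sides signal, which often makes cells of unlike identity repel each other and keeps them apart. At the coronal suture the system is known for holding bone-forming cells of the frontal and parietal territories away from the non-osteogenic cells between them. Losing a Twist1 copy makes this joint fuse too early (coronal synostosis) in mice and people, and altered EFNA4 and EFNB1 are known from human craniosynostosis and craniofrontonasal syndrome.

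The deposited values are reads per gene scaled within each library, with no correction for length, so levels of different genes are compared below only per kb of exon. The 3 WT libraries held 16356391 to 20019712 estimated reads, the MUT libraries 2945636 to 10894209 and the REG libraries 18276494 to 39377876. The MUT libraries also stood apart in background, estimated from 1747 olfactory and vomeronasal receptor genes that a suture should not use. It made up 0.614% to 0.866% of reads in WT, 7.86% to 23.2% in MUT and 0.509% to 0.849% in REG, and MUT replicate 2 combined the lowest background of its group with the lowest depth. Twist1, the gene targeted in MUT and REG, was at 16.2, 23.3 and 23.1 in WT libraries, at 0.987, 8.08 and 0.548 in MUT libraries, and at 3.76, 9.19 and 12.2 in REG libraries. It fell in MUT against WT (log2 change -3.26 ± 0.76 SE, limma adjusted p = 0.0109), and the MUT and REG ranges overlapped. After subtraction of the estimated background the change was -2.90 and not called (limma adjusted p = 0.0505). With MUT replicate 2 as the only MUT library it was -1.31.

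Upstream sequences are shown first for Efna5, Epha3, Efna4 and Efnb2. In deposited values Efna5 and Epha3 were low in MUT and high again in REG. Efna4 and Efnb2 were low in both Twist1+/- groups on that scale. Each run is the 250 bases before the start site in RefSeq's GRCm38.p6, 5′ to 3′ on the gene's own strand, with any E-box, the CANNTG motif that basic helix-loop-helix factors such as Twist1 bind, in capitals.
Efna5: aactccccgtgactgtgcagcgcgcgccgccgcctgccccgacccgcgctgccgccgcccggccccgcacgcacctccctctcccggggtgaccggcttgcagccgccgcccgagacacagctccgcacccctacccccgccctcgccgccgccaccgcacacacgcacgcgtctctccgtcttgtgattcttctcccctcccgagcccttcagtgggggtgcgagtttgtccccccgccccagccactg
Epha3: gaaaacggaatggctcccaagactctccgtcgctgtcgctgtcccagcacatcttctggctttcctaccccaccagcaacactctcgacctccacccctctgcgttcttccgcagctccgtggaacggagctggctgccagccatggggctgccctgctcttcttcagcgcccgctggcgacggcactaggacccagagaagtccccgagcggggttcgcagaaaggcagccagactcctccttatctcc
Efna4: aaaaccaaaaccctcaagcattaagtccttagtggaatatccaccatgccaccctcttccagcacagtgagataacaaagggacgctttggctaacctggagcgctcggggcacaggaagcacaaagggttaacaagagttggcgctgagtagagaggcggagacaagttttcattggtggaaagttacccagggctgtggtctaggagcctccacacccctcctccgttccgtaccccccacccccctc
Efnb2: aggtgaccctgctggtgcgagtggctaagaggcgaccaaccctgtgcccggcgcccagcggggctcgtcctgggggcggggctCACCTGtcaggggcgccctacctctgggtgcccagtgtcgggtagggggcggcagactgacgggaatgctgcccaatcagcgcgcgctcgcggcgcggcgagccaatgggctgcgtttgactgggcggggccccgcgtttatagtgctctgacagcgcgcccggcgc

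These runs lie at chr17:62881318-62881567 for Efna5, chr16:63864176-63864425 for Epha3, chr3:89338029-89338278 for Efna4 and chr8:8661243-8661492 for Efnb2, all of them on the minus strand. Across all 10 genes, CANNTG on either strand occurred in 2, with 1 site in Efnb2 beginning at position -167 and 2 sites in Ephb3 beginning at -173 and -137, counted back from the start site. Of 32851 RefSeq promoters of the same length, 66.2% held at least 1 such site. CATCTG on either strand, a form of E-box contained in CANNTG, was in 0 of the 10 genes and in 14.4% of all promoters. A double E-box (CANNTG, 5 bases of any kind, CANNTG) was in 0 of the 10 and in 0.639% of all. The Efna5 run was 74.8% G and C with 32 CpG pairs and the Efnb2 run 72% with 27, while Epha3 had 62.8% with 16 and Efna4 54.4% with 7. The middle values over all promoters were 52.4% and 6 CpG pairs. A match of letters is a description, and its absence says only that the motif is not in this window.

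In unoperated Twist1+/- suture most of the group was lower than in WT. Of the 10 genes, 7 fell and 0 rose in MUT against WT (Efna2, Efna4, Efna5, Efnb1, Efnb2, Epha3 and Epha4), by 1.27 to 2.34 on the log2 scale, which is 2.41-fold to 5.06-fold. In deposited values all MUT libraries were below all WT libraries for each of these 7, which held for 25.9% of all genes. Among all genes tested 35.1% were called in this comparison, 14.6% lower and 20.5% higher, and the median change was -1.52 over the 10 genes and 0.18 over all 29107. The calls come from limma on log2(value + 0.367), fitted to all 9 libraries and adjusted over all genes, with a call at an adjusted p under 0.05. These are bulk samples, so fewer cells of a type and less RNA per cell cannot be told apart.

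**Figure D1:**
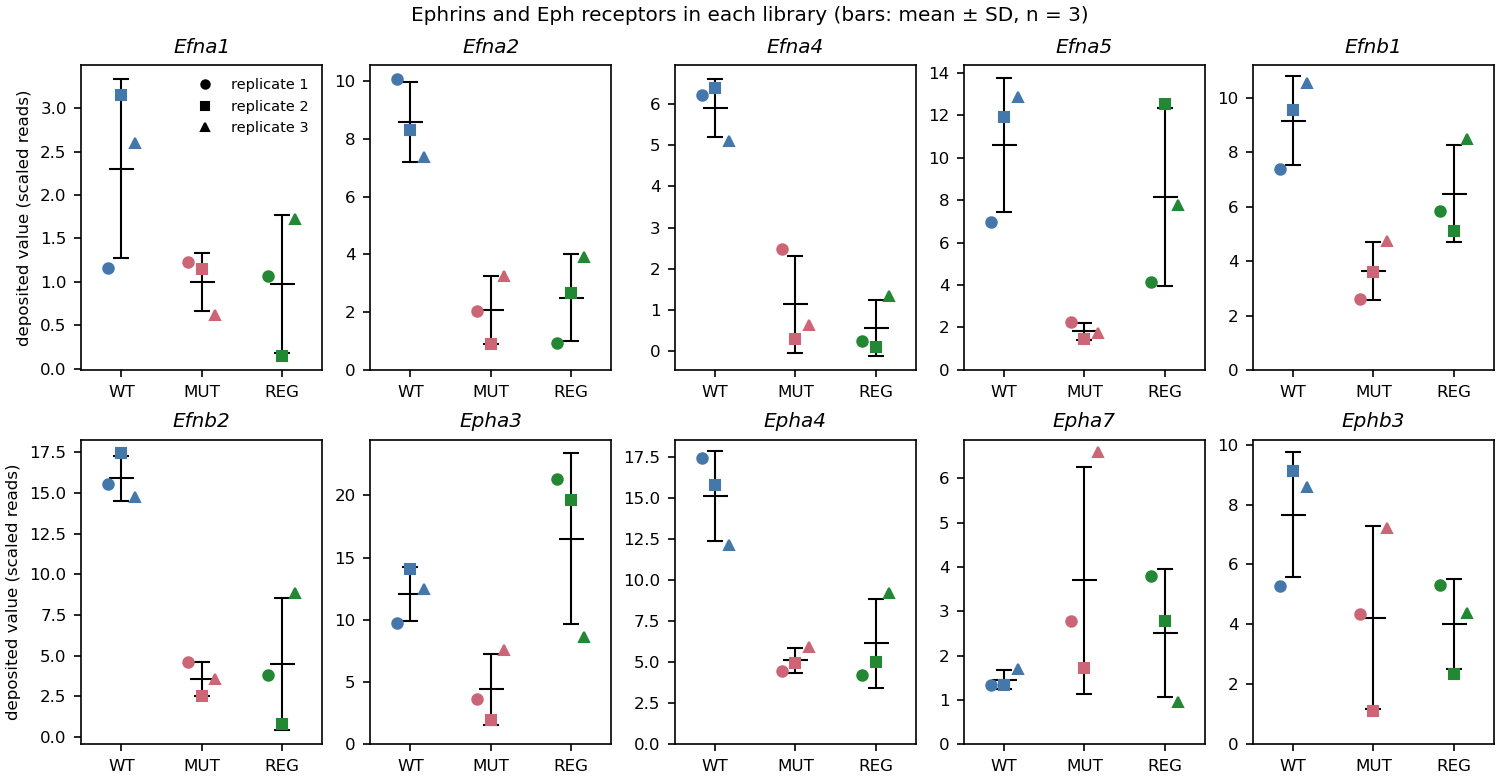
Deposited value (scaled reads, linear axes that differ by gene) of each of the 10 genes in the 9 libraries; symbols mark replicates and black bars give the mean ± SD of 3 libraries. In MUT, 7 genes lie wholly below WT, Epha7 lies wholly above it, and in REG Efna5 and Epha3 lie wholly above MUT.

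How far these falls reach depends on the scale and on single libraries. With values scaled to total reads the median over all genes in MUT against WT moved from 0.18 to 1.16, the calls over all genes moved to 13748 higher and 938 lower (main scaling: 5964 and 4261), and 0 of the 10 genes fell while Epha7 rose. On each of the 4 scalings the median of the 10 genes lay below that of all genes, by 1.70 with the main scaling, 1.57 with trimmed-mean, 1.10 with quantile and 1.49 with total-read scaling. Among the 11449 genes that pass a filter 10 times stricter, 3985 fell and 910 rose, and the median was -0.99. The 8 members that pass it (Efna1 and Epha7 do not) had a median of -1.78, which is 0.79 below that of all genes. After subtraction of the estimated background 1 gene, Efna5, was still called (log2 change -2.08, adjusted p = 0.0309). Leaving out WT replicate 1, 2 or 3 left 2, 1 and 4 genes called, and leaving out MUT replicate 1, 2 or 3 left 2, 2 and 3, all of them lower.

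Reads of the 10 genes stood close to background in MUT. The ratio of estimated reads to those expected from background over the gene's exons was 4.13 to 154 in WT, 0.677 to 5.49 in MUT and 2.15 to 136 in REG. A ratio of 5 or more was reached by 9, 10 and 10 of the 10 genes in WT replicates 1 to 3, by 0, 1 and 1 in MUT and by 10, 7 and 10 in REG. Below 1 were Efna4, Epha7 and Ephb3 in MUT replicate 2 and Epha7 in MUT replicate 1. The part of background in the changes was tested only by the subtraction above.

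**Figure D2:**
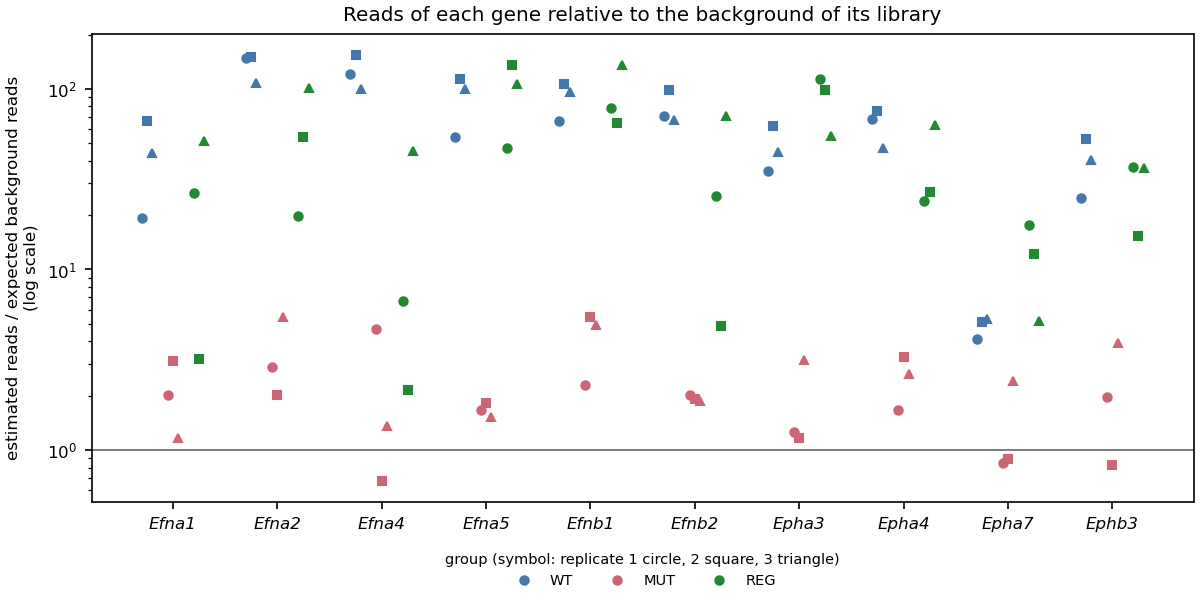
Estimated reads of each gene divided by the reads expected from background over its exons, on a log axis, in the 9 libraries; colours mark the group, symbols the replicate, and the line marks a ratio of 1. All MUT points lie at or below 5.49, and WT points lie between 4.13 and 154.

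Markers of other cell types moved along with the groups. The summed value of 10 suture mesenchyme and osteoblast markers was 24923 to 44862 in WT, 1330 to 14324 in MUT and 12586 to 33525 in REG, and 8 of the 10 fell in MUT. Most of this sum was Col1a1, at 16370, 29123 and 18571 in WT libraries and 1491, 10061 and 838 in MUT libraries. In REG libraries Col1a1 was at 7794, 7748 and 21288. Of 10 endothelial markers, a cell type known to use Efnb2 and Efna1, 4 fell in MUT, with sums of 138 to 177 in WT, 46.5 to 82.1 in MUT and 99.5 to 198 in REG. Neuron markers summed to 24.5 to 32.5 in WT, 56.7 to 110 in MUT and 19.6 to 30.8 in REG, where 3 of 12 rose and 1 fell in MUT. Keratinocyte sums were 12.8 to 14.7, 57.7 to 256 and 8.38 to 11.7 in the same order (3 of 10 rose and 1 fell in MUT), B cell sums 33.8 to 77.8, 328 to 1757 and 64.6 to 107 (2 of 8 rose), and skeletal muscle sums 5.64 to 61.2, 13.7 to 19.5 and 31.9 to 235 (1 of 8 rose). A single gene carried the keratinocyte and the B cell sums in MUT: Trp63 at 39.6, 243 and 104, with Krt5 and Krt14 at 1.31 or less, and Pax5 at 271, 1547 and 363. In MUT no marker of these 6 lists had a group mean under 0.367, whereas in WT 3 keratinocyte, 1 muscle and 2 B cell markers did. The part of these cell types in the changes of the 10 genes was not tested.

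Among the A-type ephrins, 3 of 4 fell in MUT, and only 1 of these 3 rose in REG. Efna5, a ligand of EphA receptors with wide use in axon guidance, lies on chromosome 17 (62604184 to 62881317, GRCm38, 5 exon blocks). Its values were 6.98, 11.9 and 12.9 in WT libraries, 2.24, 1.46 and 1.73 in MUT libraries, and 4.15, 12.5 and 7.78 in REG libraries. Every MUT library was below every WT and every REG library, and the REG and WT ranges overlapped. It fell in MUT against WT (log2 change -2.30 ± 0.44 SE, adjusted p = 0.00514) and rose in REG against MUT (1.86 ± 0.44, adjusted p = 0.0110). The difference of REG from WT was -0.44 with a 95% interval of -1.43 to 0.54 (adjusted p = 0.744). These comparisons share libraries and are set side by side only. Its fall was called without each library in turn, and its rise was not called without MUT replicate 3 (1.84). Efna5 kept its fall after background subtraction, and its rise in REG too (1.99, adjusted p = 0.0396), whereas total-read scaling gave 1.08 for the rise without a call.

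Efna4, the ligand whose human counterpart is altered in some patients with coronal synostosis, lies on chromosome 3 (89333390 to 89338028, minus strand). It stood at 6.22, 6.40 and 5.10 in WT libraries, 2.48, 0.299 and 0.623 in MUT libraries, and 0.242, 0.0903 and 1.34 in REG libraries. Both Twist1+/- groups lay wholly below WT and overlapped each other. The fall in MUT was -2.34 ± 0.61 (adjusted p = 0.0168) and the REG against MUT difference -0.66 (interval -2.02 to 0.70, adjusted p = 0.428). REG differed from WT by -3.00 ± 0.61, the largest difference of the 10 genes in that comparison, at an unadjusted p of 0.000616 and an adjusted p of 0.466. The low values rest on few reads, with 2 estimated reads in MUT replicate 2 and 7.07 in REG replicate 2, against 210.9 to 241.7 in WT. MUT replicate 2 had the lowest depth of all libraries, whereas REG replicate 2 was deeper than every WT library. Exons of Efna4 share 168 bases with 4731419I09Rik on the other strand, and whether reads were counted by strand is not given in the sources used here.

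Efna2, another EphA ligand known from this boundary, lies on chromosome 10 (80179482 to 80190010). WT libraries gave 10.1, 8.29 and 7.38, MUT libraries 2.03, 0.896 and 3.25, and REG libraries 0.922, 2.65 and 3.92. The pattern followed that of Efna4: WT stood apart and the other groups overlapped. Its change was -2.00 ± 0.52 in MUT against WT (adjusted p = 0.0167), 0.20 in REG against MUT (interval -0.96 to 1.36, adjusted p = 0.791) and -1.80 ± 0.52 in REG against WT (unadjusted p = 0.00628, adjusted p = 0.498).

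Efna1, a ligand that endothelial cells also use, lies on chromosome 3 (89271733 to 89281142), and Efna1, Efna3 and Efna4 fill a stretch of 66.3 kb there. Its values were low throughout, at 1.16, 3.15 and 2.601 in WT libraries, 1.23, 1.15 and 0.614 in MUT libraries, and 1.07, 0.146 and 1.72 in REG libraries. The 3 groups overlapped, and no comparison was called (log2 change -0.92 in MUT against WT, interval -2.14 to 0.31, adjusted p = 0.218).

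Both B-type ephrins fell in MUT. Efnb1, the X-linked gene of craniofrontonasal syndrome, lies on chromosome X (99136130 to 99148991). It stood at 7.38, 9.56 and 10.6 in WT libraries, 2.62, 3.59 and 4.73 in MUT libraries, and 5.84, 5.13 and 8.50 in REG libraries, so that all REG libraries were above all MUT libraries and only REG replicate 3 reached the WT range. The fall in MUT was -1.27 ± 0.36 (adjusted p = 0.0226). The REG against MUT difference was 0.78 ± 0.36 with an interval of -0.02 to 1.57, and did not pass the test (adjusted p = 0.116). Non-overlap of REG above MUT was seen in 14% of all genes. With trimmed-mean scaling the same difference was 1.40 and was called. As reads per 1e+06 reads of the library (RPM) the groups of Efnb1 overlapped, with 15.9, 18.1 and 22.0 in WT libraries, 14.6, 11.9 and 28.6 in MUT libraries, and 15.9, 15.1 and 19.02 in REG libraries.

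Efnb2, a ligand of EphB receptors and of EphA4 that arteries are known for, lies on chromosome 8 (8617434 to 8661242). Its values were 15.6, 17.4 and 14.7 in WT libraries, 4.58, 2.53 and 3.57 in MUT libraries, and 3.82, 0.776 and 8.86 in REG libraries. MUT and REG lay wholly below WT, and REG was the most spread, with its libraries on both sides of the MUT range. Efnb2 fell in MUT (-2.08 ± 0.64, adjusted p = 0.0311), with -0.12 in REG against MUT (interval -1.55 to 1.31, adjusted p = 0.906) and -2.20 ± 0.64 in REG against WT (unadjusted p = 0.00649, adjusted p = 0.498). Its fall in MUT was called in 13 of 24 alternatives, with changes of -2.49 to -0.90. The ratio of Efnb1 to Efnb2 per kb was 0.941 to 1.43 in WT, 1.14 to 2.82 in MUT, and 3.03, 13.1 and 1.90 in REG; every REG library was above every WT library.

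Of the 3 EphA receptors, 2 fell in MUT and 1 of these rose in REG. Epha3, a receptor for A-type ephrins such as Efna5, lies on chromosome 16 (63543534 to 63864175, 19 exon blocks). WT libraries gave 9.76, 14.04 and 12.5, MUT libraries 3.62, 1.98 and 7.59, and REG libraries 21.3, 19.6 and 8.62. In deposited values REG replicates 1 and 2 were above every WT library, and REG replicate 3 was below every one of them, while all MUT libraries were the lowest. Epha3 fell in MUT (-1.55 ± 0.51, adjusted p = 0.0396) and rose in REG against MUT (1.90 ± 0.51, adjusted p = 0.0173), with 0.35 in REG against WT (interval -0.79 to 1.49, adjusted p = 0.826). The rise was called in 17 of 24 alternatives, with changes of 1.07 to 2.75. Among the losses were those under total-read scaling, after background subtraction, and without MUT replicate 1 (1.86) or MUT replicate 2 (1.48). With REG replicate 3 as the only REG library the change was 1.10. MUT replicate 3 was the MUT library nearest to WT in deposited values. After background subtraction it had 39.4 RPM, against 20.7 to 26.3 in WT and 19.1 in REG replicate 3. The fall in MUT was called in 12 of 24 alternatives, with changes of -2.40 to -0.37.

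Epha4, a receptor that binds both classes of ephrin and whose loss in mice is known to disturb the coronal boundary, lies on chromosome 1 (77367185 to 77515088). It stood at 17.4, 15.8 and 12.1 in WT libraries, 4.44, 4.96 and 5.93 in MUT libraries, and 4.21, 4.98 and 9.22 in REG libraries. In deposited values all Twist1+/- libraries were below all WT libraries, operated or not. After background subtraction MUT replicate 3 had 28.1 RPM, above WT replicate 3 at 24.9. The fall in MUT was -1.49 ± 0.37 (adjusted p = 0.0142). It was called in 16 of 24 alternatives, with changes of -1.71 to -0.30. REG differed from MUT by 0.18 (interval -0.65 to 1.01, adjusted p = 0.736) and from WT by -1.31 ± 0.37 (unadjusted p = 0.00558, adjusted p = 0.498).

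Epha7, a receptor best known from the developing nervous system, lies on chromosome 4 (28813131 to 28967499). Its values were 1.33, 1.34 and 1.70 in WT libraries, 2.78, 1.73 and 6.59 in MUT libraries, and 3.79, 2.78 and 0.947 in REG libraries. Each MUT library was above each WT library, as for 32.6% of all genes, but the difference of 0.98 did not pass the test (interval -0.22 to 2.18, adjusted p = 0.180). After background subtraction the sign turned (-0.09), with 0 RPM left in MUT replicates 1 and 2 and 29.3 in MUT replicate 3, against 2.01 to 2.87 in WT. In REG, replicates 1 and 2 had 17.6 and 12.2 times the expected background and replicate 3 had 5.16.

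Ephb3, the EphB receptor of the group and a partner of both B-type ephrins, lies on chromosome 16 (21204755 to 21223305). It gave 5.29, 9.11 and 8.60 in WT libraries, 4.34, 1.11 and 7.23 in MUT libraries, and 5.30, 2.36 and 4.40 in REG libraries. The groups overlapped throughout, and the changes were -1.06 in MUT against WT (interval -2.36 to 0.24, adjusted p = 0.181), 0.16 in REG against MUT (-1.14 to 1.46, adjusted p = 0.856) and -0.90 in REG against WT (-2.20 to 0.40, adjusted p = 0.618).

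Across the group, then, 2 of 10 genes rose in REG against MUT, Efna5 and Epha3, and 0 fell. Of all genes, 36.6% were called in this comparison, 11.8% higher and 24.8% lower, so that the share of higher calls among the 10 genes is not far from the background. The median change was 0.17 over the 10 genes and -0.36 over all genes. With a filter 10 times stricter, which 8 of the 10 pass, this order turned, with 0.19 for the 8 genes and 0.73 for all 11449 genes that pass. Calls over all genes also changed their split with the scaling, from 3432 higher and 7221 lower to 6112 and 3618 with trimmed-mean scaling and 1069 and 13514 with total-read scaling. Without MUT replicate 1, 2 or 3 the count was 1 in each case.

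**Figure D3:**
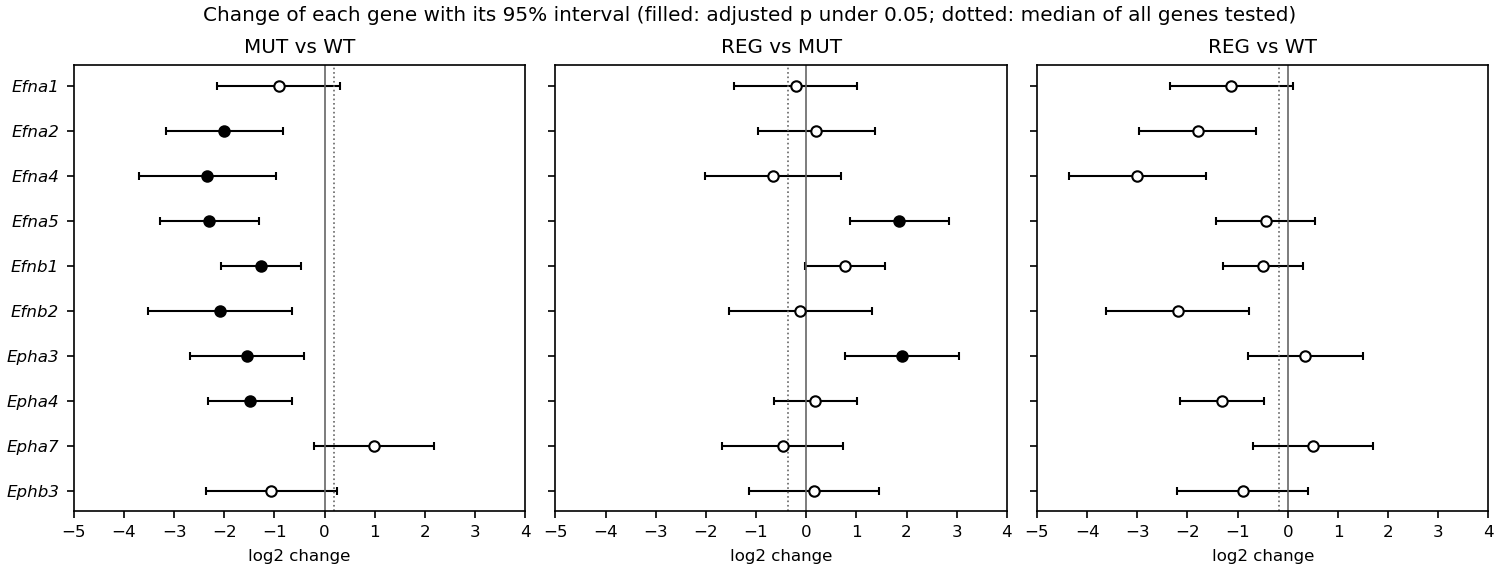
Log2 change of each gene with its 95% interval in the 3 comparisons; filled points passed the test (adjusted p under 0.05), the solid line marks 0 and the dotted line the median of all genes tested. Filled points number 7 in MUT vs WT, all to the left, and 2 in REG vs MUT, both to the right; REG vs WT has none.

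In REG against WT, 0 of the 10 genes and 0% of all 29107 genes passed limma's test, with 2755 genes (9.47%) at an unadjusted p under 0.05, 7.34% lower. Efna2, Efna4, Efnb2 and Epha4 were at an unadjusted p under 0.05 and had all REG libraries below all WT libraries, which 12.1% of all genes had. REG replicate 3 had the highest REG value for these 4 genes, and it decided this comparison: without it, 1616 genes were called, among them Efna2 (-2.17, adjusted p = 0.0497), Efna4 (-3.56, adjusted p = 0.0181), Efnb2 (-2.89, adjusted p = 0.0235) and Epha4 (-1.63, adjusted p = 0.0341). The 2 libraries left are then assumed to vary like the other groups. The deposited library names of REG replicates 1 and 2 end in S2 and S3, as do those of WT replicates 2 and 3. That of REG replicate 3 ends in S8. REG replicates 1 and 2 held 39377876 and 30272185 estimated reads, against 18276494 in REG replicate 3. The labels give no batch, and the part of batch or depth in this comparison was not tested.

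Per kb of exon, 5 of the 6 member ligands had higher mean values than any of the 4 member receptors in WT, and Efna1 did not. This holds for the chosen receptors only. Outside the members, Ephb4 was at 4.16 ± 1.12 and Epha2 at 3.29 ± 0.26 in WT, and the remaining Eph receptors were at 1.61 or less. The order of the members was Efna2 (4.03 ± 0.65 SD, n = 3), Efna4 (3.69 ± 0.44), Efnb1 (2.66 ± 0.47), Efna5 (2.63 ± 0.78), Efnb2 (2.32 ± 0.20), Epha4 (1.88 ± 0.34), Epha3 (1.39 ± 0.25), Efna1 (1.26 ± 0.56), Ephb3 (1.15 ± 0.31) and Epha7 (0.147 ± 0.021). Neighbours in this order overlapped except Efna4 over Efnb1 and Ephb3 over Epha7. In MUT all neighbours overlapped, from Efnb1 (1.06 ± 0.31) at the top to Epha7 (0.374 ± 0.259). In REG Efna5 (2.02 ± 1.04), Epha3 (1.90 ± 0.79) and Efnb1 (1.88 ± 0.51) came first and Efna4 (0.348 ± 0.425) was next to last, again with overlap between all neighbours.

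**Figure D4:**
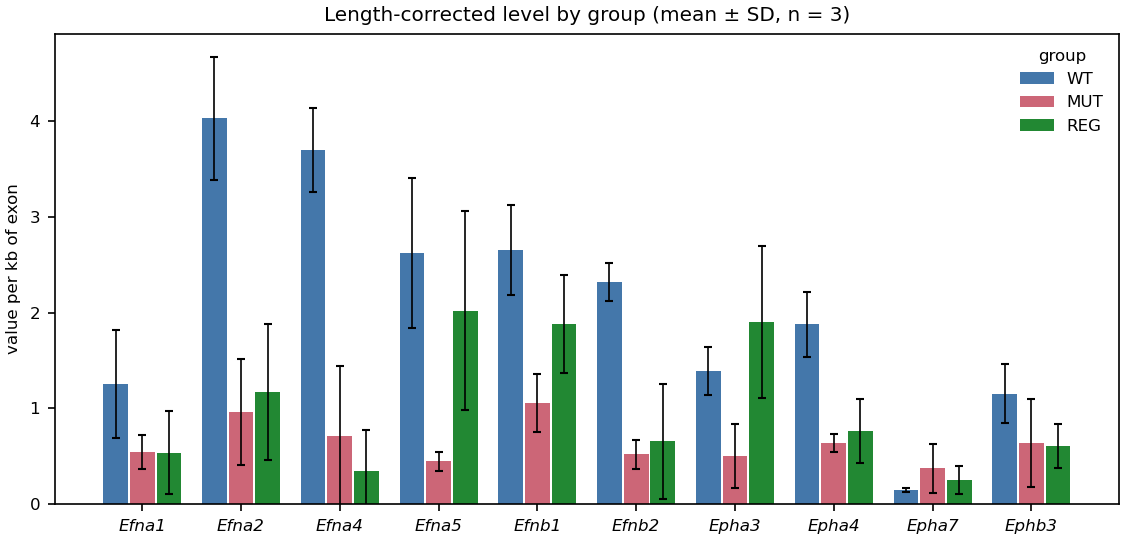
Mean deposited value per kb of exon of each gene in WT, MUT and REG; error bars are the SD of 3 libraries. The WT bars of Efna2 (4.03) and Efna4 (3.69) are the tallest, and REG bars of Efna5, Epha3 and Efnb1 stand near 2.

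The makeup of the group differed with it. Epha3 made up 26.6% to 32.6% of the per-kb sum of the 4 receptors in WT, 19.2% to 25.96% in MUT, and 59.0%, 64.3% and 34.3% in REG replicates 1 to 3. Efna4 made up 28.3% to 35.4% of the 4 A-type ephrins in WT, 41.6%, 11.7% and 14.5% in the MUT libraries, and 6.90%, 1.26% and 15.1% in REG. For Efna5 the share was 15.8% to 28.3% in WT, 14.9%, 22.7% and 16.0% in the MUT libraries, and 46.8%, 69.2% and 34.8% in REG. In these 3 shares REG lay wholly outside WT, with REG replicate 3 the nearest. The share of Epha4 among the 4 receptors was 34.1% to 51.3% in WT and 12.6%, 17.6% and 39.5% in REG, with REG replicate 3 inside the WT range. These shares are descriptions, and no test was run on them.

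Of the 12 other ephrins and Eph receptors, 2 fell and 3 rose in MUT against WT, shares near the 14.6% lower and 20.5% higher of all genes. Epha2, an EphA receptor of epithelia and bone cells, was at 15.4 ± 1.21 in WT (SD, n = 3), 2.70 ± 0.239 in MUT and 7.36 ± 4.74 in REG, and fell in MUT (-2.36 ± 0.42 SE, adjusted p = 0.00371). Ephb4, the venous partner of Efnb2, was at 19.3 ± 5.19, 3.56 ± 1.73 and 10.7 ± 8.20 in the same order and also fell (-2.42 ± 0.59, adjusted p = 0.0133). This call was lost without WT replicate 2 (-2.24), with quantile scaling (-1.89), with total-read scaling (-1.24) and after background subtraction (-1.67). The genes that rose are known from the nervous system: Epha10 (2.24 ± 0.43, adjusted p = 0.00493), Epha6 (1.34 ± 0.31, adjusted p = 0.0107) and Ephb1 (1.63 ± 0.56, adjusted p = 0.0452). Epha6 reads in MUT were 0.641 to 1.31 times the expected background, those of Epha10 2.86 to 6.93 times and those of Ephb1 1.54 to 9.13 times. Ephb1 lost its call when any single WT or MUT library (1.05 to 1.98) or REG replicate 1 (1.63) was left out. Called genes among the 12 numbered 3 without WT replicate 2 and without each MUT library in turn, and under total-read scaling 6 rose and 1 fell.

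In REG against MUT, 0 of these 12 rose and 4 fell: Epha10 (-2.10 ± 0.43, adjusted p = 0.00595), Epha6 (-1.43 ± 0.31, adjusted p = 0.00751), Epha1 (-1.48 ± 0.40, adjusted p = 0.0176) and Ephb2 (-1.39 ± 0.39, adjusted p = 0.0209). Ephb2, a receptor for B-type ephrins, was at 11.2 ± 3.40 in WT, 21.7 ± 7.75 in MUT and 7.76 ± 1.59 in REG. All genes had 11.8% higher and 24.8% lower here. With trimmed-mean scaling 2 of the 12 rose and 2 fell, and Ephb2 (-0.70, adjusted p = 0.248) and Epha1 (-0.95, adjusted p = 0.0691) were not called. Quantile scaling and background subtraction left 2 falls each. Without MUT replicate 1, 2 or 3 the count of falls was 2, 2 and 1. The median change of the 12 was 0.41 in MUT against WT and -0.92 in REG against MUT, beside 0.18 and -0.36 over all genes. In REG against WT 0 of the 12 were called by limma, with 2 at an unadjusted p under 0.05, both lower.

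Genes that act inside the cell below Eph receptors and ephrins were followed as a list of 30. In MUT against WT 14 fell and 0 rose, with a median change of -1.16, beside 14.6% lower and 20.5% higher over all genes. All 30 pass the stricter filter, among whose 11449 genes 3985 fell and 910 rose. Itsn1, a scaffold that binds EphB receptors and drives Cdc42 exchange, was at 5872 ± 738 in WT, 366 ± 131 in MUT and 2920 ± 2708 in REG (-4.05 ± 0.60, adjusted p = 0.00194). Its WT reads numbered 210391 to 249535 per library. Per kb of exon it was at 251 in WT, against 10.9 for Dnm1 and 2.72 for Rasa1. Whether these reads come from the Itsn1 transcript itself was not tested. Dnm1, a dynamin of endocytosis, was at 57.4 ± 4.71, 4.63 ± 1.02 and 28.8 ± 12.2 (-3.55 ± 0.39, adjusted p = 0.000881). Rasa1, the Ras GTPase-activating protein that docks on Eph receptors, was at 19.9 ± 4.13, 3.98 ± 0.617 and 20.1 ± 2.96 (-2.21 ± 0.33, adjusted p = 0.00194). The count of falls was 13 without MUT replicate 2, 7 without MUT replicate 1, MUT replicate 3, WT replicate 1 or WT replicate 3, and 6 without WT replicate 2. It was 5, with 2 rises, under quantile scaling, 4, with 3 rises, under total-read scaling and 3, with 1 rise, after background subtraction.

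In REG against MUT 9 of the 30 rose and 1 fell, with a median of 0.79, beside 11.8% higher and 24.8% lower over all genes. Among the 11449 genes that pass the stricter filter, as all 30 do, 2780 rose and 872 fell. Their median was 0.73, close to that of the list. Trimmed-mean scaling gave 18 rises and 1 fall, total-read scaling 4 and 3, quantile scaling 3 and 2, and background subtraction 2 and 2. Rasa1 (2.24 ± 0.33, adjusted p = 0.00197), Dnm1 (2.47 ± 0.39, adjusted p = 0.00251) and the GTPase Rac1 (2.30 ± 0.39, adjusted p = 0.00324) had the smallest p of those that rose. Grip1, a PDZ scaffold for B-type ephrins, was the gene that fell (-1.69 ± 0.39, adjusted p = 0.0101; named after its value was seen). REG against WT had 0 calls by limma among the 30 and 4 genes at an unadjusted p under 0.05, all lower. Without MUT replicate 1 the count was 5 higher and 0 lower.

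Regulators of the boundary and of synostosis were the third list, of 14 genes with Twist1 among them. In MUT against WT 11 fell and 1 rose, with a median of -2.25, beside 14.6% lower and 20.5% higher over all genes. With the stricter filter, which 13 of the 14 pass, 11 fell and 1 rose, beside 3985 and 910 of 11449 genes. Jag1, a Notch ligand of the boundary, was at 26.5 ± 7.32 in WT, 3.98 ± 0.173 in MUT and 21.0 ± 1.01 in REG (-2.59 ± 0.33, adjusted p = 0.00129). Erf, a repressor below ERK signalling whose loss in people is a known cause of synostosis, was at 24.2 ± 2.25, 4.58 ± 1.02 and 22.3 ± 3.30 (-2.33 ± 0.32, adjusted p = 0.00159). Fgfr2, the receptor altered in Apert and Crouzon syndromes, was at 92.1 ± 26.8, 10.4 ± 0.122 and 45.2 ± 22.3 (-3.05 ± 0.42, adjusted p = 0.00160). Zic1, a transcription factor of neural crest and meninges, rose instead (2.85 ± 0.56, adjusted p = 0.00537; named for its fall in REG). The count of falls was 9 to 11 without any single library, 8 under total-read scaling and 4 after background subtraction.

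In REG against MUT 8 of the 14 rose and 2 fell, with a median of 1.65, beside 11.8% higher and 24.8% lower over all genes. With the stricter filter 8 of 13 rose and 1 fell, beside 2780 and 872 of 11449 genes, whose median was 0.73. Quantile scaling gave 3 rises and 1 fall, total-read scaling 3 and 2, and background subtraction 3 and 1. Jag1 (2.30 ± 0.33, adjusted p = 0.00188) and Erf (2.21 ± 0.32, adjusted p = 0.00198) rose, and Zic1 fell (-3.57 ± 0.56, adjusted p = 0.00243). Zic1 stood at 13.1, 17.1 and 17.6 in WT libraries, 54.1, 216 and 134 in MUT libraries, and 4.87, 14.1 and 12.1 in REG libraries, with MUT wholly above both. Without MUT replicate 1 or 3 the rises numbered 5. REG against WT had 0 calls by limma in this list, with 3 genes at an unadjusted p under 0.05, all lower. These counts and medians describe the lists and were not tested as sets.

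The genes whose course over the 9 libraries was most like that of 3 members were found by the root mean square difference of centred log2 values among 17818 protein-coding genes. Nearest to Efnb1 were Cask (0.13), Eml1 (0.15) and Noc3l (0.15). Nearest to Epha4 were Phlpp1 (0.22), Ptbp2 (0.22) and Bbc3 (0.24). For Efna4 the nearest were Glis1 (0.47), Kcns3 (0.50) and Pcdhga3 (0.50), and among the other 9 members Efnb2 came closest to it, at rank 18 (0.60). The measure is on the log2 scale, and the libraries share their depth and background within a group.

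In the authors' deposited table, 5 of the 10 genes had a false discovery rate under 0.05 for WT over MUT: Efna5 (0.0102), Efna2 (0.0316), Epha4 (0.0329), Efnb2 (0.0461) and Efna4 (0.0486). The authors' deposited table put Epha3 (0.0502) and Efnb1 (0.0546) just above it. For REG over MUT the authors' deposited table had 2 under 0.05, Epha3 (0.0163) and Efna5 (0.0124), and for WT over REG 0. Over all 43644 genes the authors' deposited table had 11128, 18105 and 0 in these comparisons.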

How the data were processed

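Per the labels' protocols, total RNA of the coronal suture was sequenced as single-end reads on a NextSeq500. Reads were aligned with STAR 2.6.1d and processed in Partek with mm10, per the submitters' processing notes. How reads were counted and scaled, and on which annotation, is not given in the sources used here. Each deposited matrix value is a signal: from the values, estimated reads plus 1, scaled by the authors to a common upper quartile in each library. Its columns follow the gene order of the deposited gene table, with all 4 summary statistics matching for 43644 genes within a relative tolerance of 1e-06. That table also gives the authors' p-value and FDR, and their log2 ratio for each pair of groups.

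Here limma 3.58.1 in R 4.3.3 (no trend, no block) was fitted to log2(value + 0.367), with a filter of 0.367 or more in at least 3 libraries, and p-values were adjusted by Benjamini-Hochberg over 29107 genes. Estimated reads were obtained by dividing each value by the smallest value of its library and taking off 1. Background is the median of reads per kb of exon over 1747 receptor genes, with exon lengths from GENCODE M21 (GRCm38; 42973 of 43644 symbols found). No exact permutation test was run, as 3 against 3 cannot go under 0.1. No label ties libraries to separate animals, so the p-values reflect only how these libraries spread, which may be technical. The fit was tested on simulated data. Promoters are from RefSeq (GRCm38.p6), where all 10 genes were found. Tables were made with Python 3.11.15, numpy 2.4.6 and pandas 2.3.3, and figures with matplotlib 3.10.9.

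Named genes are the 10 members, Twist1, other family genes called in any comparison, 3 genes of smallest p per comparison in the signalling and boundary lists, and the 3 genes most like Efnb1, Efna4 and Epha4. The members and lists were chosen with earlier results of these data known. Alternatives were other scalings, pseudocounts and filters, background subtraction, a trend, array weights, 2-group fits, a replicate block and left-out libraries.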

Additional observations from a re-analysis of the deposited data

How the results depend on the processing

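Over the alternatives run on the members' changes, on Twist1 and on the other named genes, 1106 values kept their direction and side of the threshold, 113 lost a call, 15 gained one and 42 changed sign. The 1106 are no measure of stability, as uncalled values that stayed uncalled are among them. Leaving out a REG library also cannot move a change of MUT against WT. Of 24 alternatives, the fall in MUT was called in 22 for Efna5, 18 for Efna4, 17 for Efna2, 16 for Epha4, 14 for Efnb1, 13 for Efnb2 and 12 for Epha3. In MUT against WT 7 members were called, all lower; the count was 3 with quantile scaling, 1 with total-read scaling (Epha7, higher, so none of the 7), 1 with background subtraction, 4 with a pseudocount 10 times lower and 1 with MUT replicate 2 alone, and ranged from 1 to 7 when each library was left out; the causes were not tested. The 2 members called in REG against MUT became 1 with quantile scaling, background subtraction, only the 2 groups, MUT replicate 2 alone or REG replicate 3 alone, and 0 with total-read scaling, with a range of 1 to 2 over left-out libraries. In REG against WT the count ranged from 0 to 4, with 4 for REG replicates 1 and 2 alone. Same-numbered libraries deviated together (r over 0.1) in 1 of 9 pairs, and 2 of 9 libraries correlated best with their own number. This check gave no sign of pairing by number. It cannot exclude a pairing, as there are 3 libraries a group and they differ in depth and background. A replicate block gave 6, 2 and 0 members in the 3 comparisons, and Epha3 in MUT against WT then had an adjusted p of 0.0701 by limma. Sign changes in MUT against WT were those of Efna1 (0.065) and Ephb3 (0.11) with total-read scaling and Epha7 (-0.094) with background subtraction. Sign changes in REG against MUT, none of them in a called value, were as follows. Trimmed-mean scaling gave 0.21 for Efna1, 0.48 for Efnb2 and 0.16 for Epha7. Quantile scaling gave 0.57 for Efna1, 0.070 for Efna4, -0.37 for Epha4 and -0.18 for Ephb3. Total-read scaling gave -0.59 for Efna2, -0.049 for Efnb1, -0.66 for Epha4 and -0.67 for Ephb3. Background subtraction gave -0.32 for Efna2, -0.15 for Epha4 and 1.01 for Epha7. Array weights gave -0.26 for Efna2 and -0.046 for Ephb3, and a pseudocount 10 times higher gave 0.058 for Efnb2. Over single left-out libraries the change ranged from -0.64 to 0.38 for Efna1, from -0.21 to 0.69 for Efna2, from -0.81 to 0.70 for Efnb2, from -0.14 to 0.39 for Epha4, from -0.86 to 0.016 for Epha7 and from -0.51 to 0.67 for Ephb3. REG replicates 1 and 2 alone, the same as without REG replicate 3, gave -0.17 for Efna2, -0.14 for Epha4 and 0.016 for Epha7. MUT replicate 2 alone gave 0.23 for Efna4, 0.29 for Efnb2, 0.30 for Epha7 and -0.095 for Twist1, and REG replicate 3 alone gave 0.65 for Efna1, 0.47 for Efna4 and 1.27 for Efnb2. In REG against WT, REG replicate 3 alone gave -0.46 for Epha3 and -0.46 for Epha7. Low members rested on the fewest reads in MUT replicate 2 and REG replicate 2, where the lowest member had 2 and 7.07 estimated reads. MUT replicate 2 had the lowest depth of all libraries, whereas REG replicate 2 was deeper than every WT library.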
